A study of Mus musculus with 9 samples.

Results

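The proteasome genes were followed in naive CD4+ T cells, helper cells before their first contact with antigen. They were taken as the protein-coding genes whose mouse symbol starts with Psma, Psmb, Psmc, Psmd, Psme, Psmf or Psmg, which gave 50 of the 55487 genes in the files. The rule used names only, and no measured value chose a member. One member, Psmc3ip, shares the name but codes for a protein of meiotic recombination, so it is counted among the members and in their sums but in none of the roles below.

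The cells came from the spleen of wild-type C57BL6/J mice, and their polyadenylated RNA was read in 9 libraries. The 3 groups hold 3 libraries each: mice left untreated, mice treated with anti-IL-1b, a neutralizing antibody, and mice treated with MCC950, both over 10 days. IL-1b is a cytokine of inflammation, and MCC950 is a small molecule that inhibits the NLRP3 inflammasome, one of the machines that release it. Separate mice are not named for the libraries within a group, so a p-value covers only the variation among these libraries, part of which may be technical.

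The proteasome degrades proteins that carry a chain of ubiquitin. Its 20S core is a barrel of alpha rings around beta rings, and the beta subunits Psmb5, Psmb6 and Psmb7 carry the cutting sites. The 19S regulator binds ubiquitin, unfolds the substrate with a ring of ATPases and feeds it into the core. Lymphocytes largely exchange the 3 cutting subunits for Psmb8, Psmb9 and Psmb10, the immunoproteasome subunits, whose products are presented on MHC class I. Psme1 and Psme2 form PA28, an activator that opens the core in place of the 19S regulator.

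Start-site windows, from 250 bases before to 50 after each gene's start, were found for 42 of the 50 members in the RefSeq table (GRCm38.p6). They are shown here because proteasome genes are known to share control by factors that bind short motifs. The antioxidant response core TGACNNNGC, read by NRF1 and NRF2, lay on either strand in 6 of 42 members (14.3%) and in 13.99% of the 27025 genes with a window. The interferon-stimulated response element lay in 5 of 42 (11.9%: Psmb3, Psmd4, Psmd9, Psme1 and Psmg4) and in 3.99% of all. The box CCAAT lay in 15 of 42 (35.7%) and in 41.1%, and the heat shock element in 0 of 42 and in 0.662%. Of the windowed genes, 9295 passed the filter on low counts given below, 41 of them members. Among the 9295 the shares were 16.9%, 3.75%, 43.1% and 0.570%, in the order of motifs above. Among the 41 members the motifs lay in 6, 5, 14 and 0. None of these motifs holds another of them. A match is a stretch of letters, not a bound site. The stretches below are the parts of 4 windows outside annotated exons, 5′ to 3′ on the gene's strand, with matches in capitals, chosen after their values were seen: Psmb5, Psmb3 and Psmb10 were higher with MCC950, and Psmd12 was lower in both treated groups.
Psmb5 promoter, chr14:54618023-54618245, minus strand: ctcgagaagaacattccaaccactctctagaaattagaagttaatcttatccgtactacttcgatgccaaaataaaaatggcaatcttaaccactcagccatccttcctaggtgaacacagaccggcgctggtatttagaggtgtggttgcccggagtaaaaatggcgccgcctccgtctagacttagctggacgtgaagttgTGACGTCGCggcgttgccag
Psmb3 promoter, chr11:97703184-97703398, plus strand: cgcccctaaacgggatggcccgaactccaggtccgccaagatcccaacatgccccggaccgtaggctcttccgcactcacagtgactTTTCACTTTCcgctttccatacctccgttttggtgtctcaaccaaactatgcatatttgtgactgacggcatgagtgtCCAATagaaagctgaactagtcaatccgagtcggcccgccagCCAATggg
Psmb10 promoter, chr8:105938445-105938642, minus strand: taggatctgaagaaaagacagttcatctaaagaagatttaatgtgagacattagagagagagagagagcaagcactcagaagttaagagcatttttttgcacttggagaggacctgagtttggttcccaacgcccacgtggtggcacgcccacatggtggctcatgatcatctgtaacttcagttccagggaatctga
Psmd12 promoter, chr11:107479278-107479483, plus strand: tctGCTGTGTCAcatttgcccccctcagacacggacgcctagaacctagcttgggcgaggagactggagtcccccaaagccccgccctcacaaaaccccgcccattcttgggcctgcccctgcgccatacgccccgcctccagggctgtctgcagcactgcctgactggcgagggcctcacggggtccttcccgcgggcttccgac
The Psmb5 match reads TGACNNNGC on the gene's own strand and begins 47 bases before the start. In Psmb3 the interferon element lies on the other strand 163 bases before the start, and CCAAT lies 85 and 43 bases before it. The Psmd12 match is the antioxidant core on the other strand, 247 bases before the start. The Psmb10 stretch holds no match to the 4 motifs.

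Of the 50 members, 48 passed the filter on low counts. Psma8, a testis form of an alpha subunit, had 0 counts, and Psmb11, the thymus form of the cutting subunit, had 3 counts over the 9 libraries, where 3 counts correspond to 0.0190 CPM, counts scaled by TMM to a common library total. Levels between genes are compared in TPM, which accounts for transcript length. In untreated cells the highest mean level was that of Psmb8, at 401 ± 8.08 TPM (SD, n = 3), followed by Psme1 at 375 ± 8.96 and Psme2 at 373 ± 92.0. The Psmb8 libraries (404, 392 and 407) lay above those of Psme1 (381, 379 and 365), while those of Psme2 (471, 359 and 289) overlapped both. Psmb4 followed at 184 ± 3.99, Psmb10 at 174 ± 6.03 and Psmb9 at 155 ± 5.93. Among the subunits of the barrel, Psma5 (46.9 ± 5.54), Psma2 (49.8 ± 3.98) and Psmb2 (53.6 ± 3.13) were lowest, and their libraries overlapped. Lower still were some assembly chaperones, with Psmg3 at 13.1 ± 1.17 and Psmd9 at 13.7 ± 1.51, and Psmc3ip stood at 4.50 ± 2.13.

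Summed over all members, the level was 4513 ± 84.7 TPM for untreated mice, 5073 ± 56.2 for the antibody and 5572 ± 87.8 for MCC950 (SD, n = 3 each). The immunoproteasome subunits summed, in the same order of groups, to 730.2 ± 9.78, 898 ± 32.1 and 1028 ± 22.6 TPM. The 7 constitutive beta subunits summed to 767 ± 11.4, 808 ± 12.3 and 911 ± 21.5 TPM. No test was run on these sums, and on the TPM scale the median of all tested genes also lay 0.14 (log2) above untreated with the antibody and 0.090 above it with MCC950. Differences are given from counts scaled by TMM, where the medians of all genes were 0.0035 and 0.011. TMM is built to bring the typical gene near 0, so these medians cannot show which scaling is right. The counts under other scalings are given below.

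With MCC950, 24 of the 48 tested proteasome genes rose (50%), 2 fell and 22 did not pass the threshold, where 17.7% of all 13374 tested genes rose, 19.1% fell and 36.8% passed in either direction. With the antibody, 3 rose (6.25%), 5 fell (10.4%) and 40 did not pass, against 15.4% and 18.5% of all genes, and 34.0% in either direction. Set directly against each other, 21 members were lower with the antibody than with MCC950 (43.75%) and 0 were higher, against 7.11% and 6.13% of all genes. The median log2 difference over the members was 0.14 for MCC950, 0.0022 for the antibody and -0.15 between the agents. Both treated groups were compared with the same 3 untreated libraries. Threshold and adjusted p refer throughout to edgeR's quasi-likelihood test, two-sided, with Benjamini-Hochberg adjustment over all tested genes and a limit of 0.05, and log2 values carry their SE. Higher and lower are relative to the other genes of a library, and fewer cells of a type cannot be told apart from less RNA per cell in bulk samples.

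**Figure D1:**
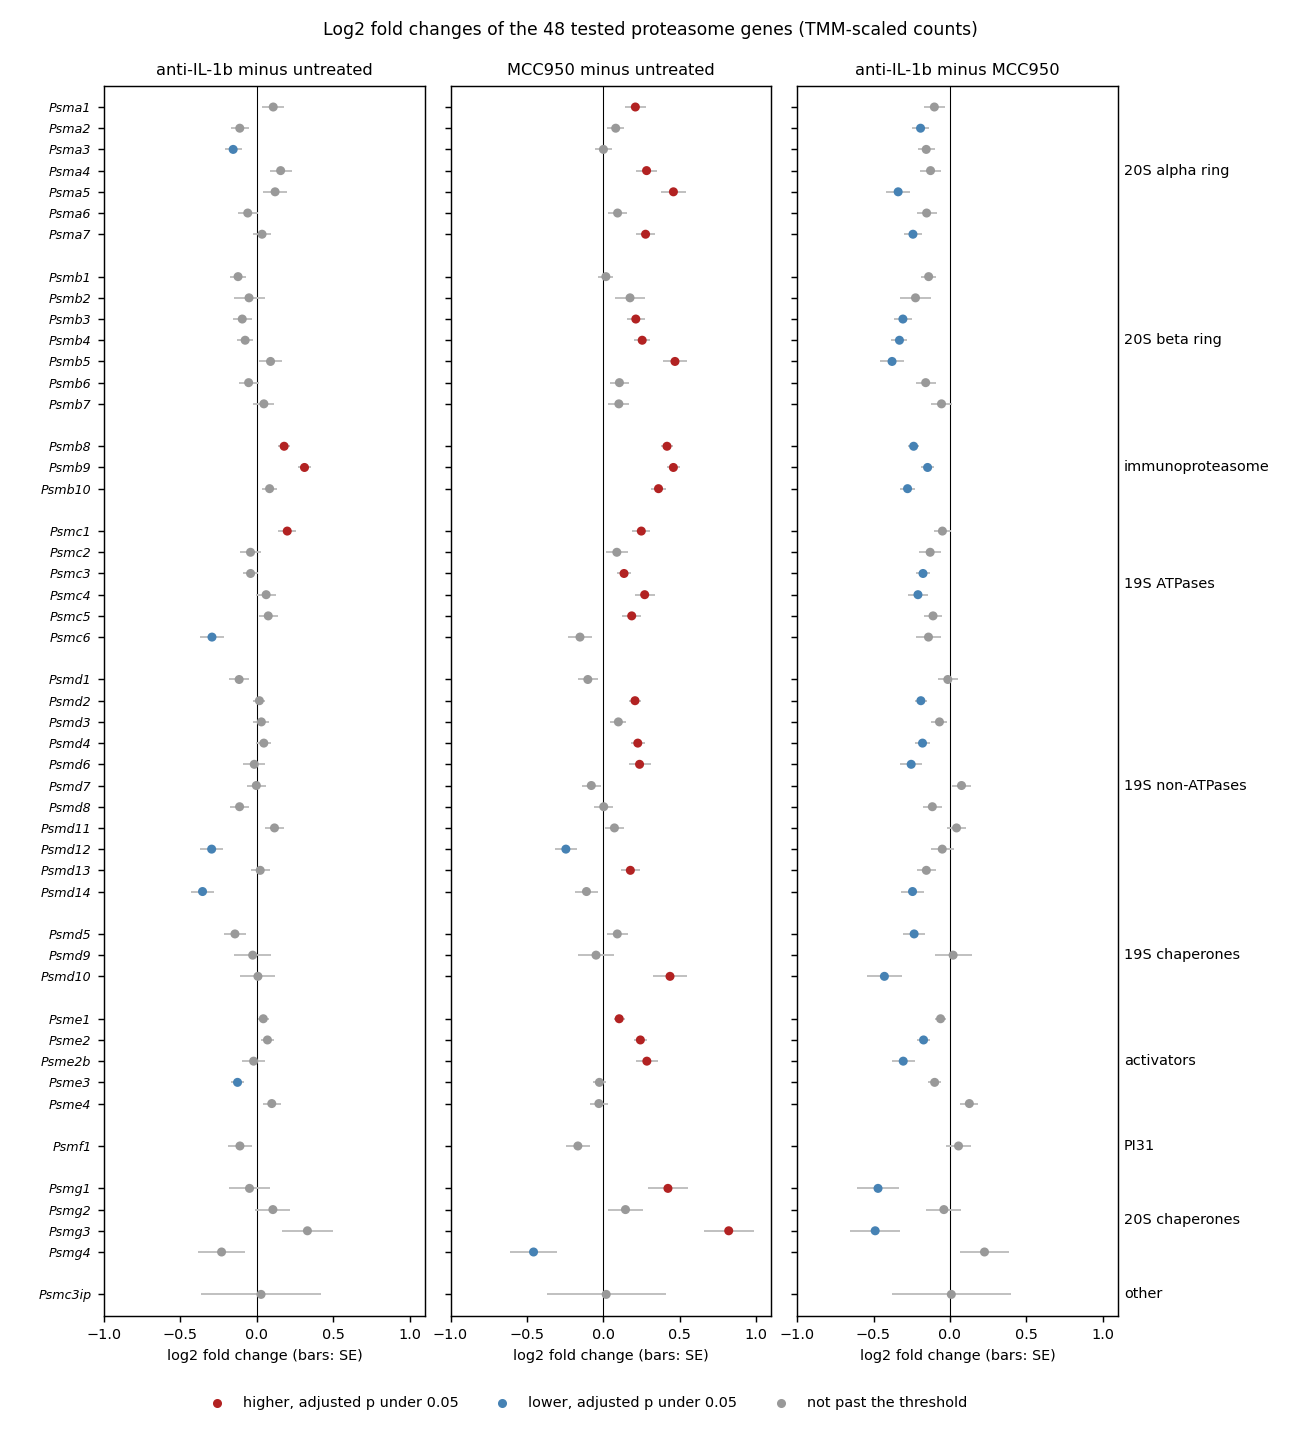
Log2 fold change (points) and its standard error (bars) of the 48 tested proteasome genes in 3 comparisons, grouped by role, with red for higher, blue for lower and grey for genes that did not pass the adjusted p limit of 0.05. The middle panel holds 24 red and 2 blue points, the left panel 3 red and 5 blue, and the right panel 21 blue and no red.

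Of the 3 tested immunoproteasome subunits, 3 rose with MCC950 and 2 with the antibody. For each count by role, here and below, 17.7% of all tested genes rose and 19.1% fell with MCC950. With the antibody these shares were 15.4% and 18.5%. Psmb8, the counterpart of Psmb5, lies at chr17:34197721-34201454 in the MHC region (GENCODE M21, GRCm38). It measured 255, 251 and 263 in the untreated libraries, 308, 283 and 279 with the antibody and 355, 326 and 346 with MCC950, in CPM. The 3 groups did not overlap. With the antibody the log2 difference was 0.18 ± 0.04 (adjusted p = 0.000205), and with MCC950 it was 0.42 ± 0.04 (adjusted p = 6.31e-12), a 1.33-fold level.

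Psmb9, the counterpart of Psmb6, lies beside it at chr17:34181987-34187764. In CPM it measured 123, 125 and 124 in the untreated libraries, 151, 159 and 152 with the antibody and 179, 168 and 164 with MCC950. Again no group overlapped another. The differences were 0.31 ± 0.04 (adjusted p = 1.13e-07) with the antibody and 0.46 ± 0.04 (adjusted p = 8.23e-12) with MCC950. Psmb9 overlaps Tap1 on the other strand, which had a mean of 431 CPM, and no source used here says whether strand was used in counting.

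Psmb10, the counterpart of Psmb7, lies at chr8:105935735-105938444. It measured 85.6, 90.2 and 90.5 in the untreated libraries, 98.8, 94.9 and 88.6 with the antibody and 114, 116 and 112 with MCC950. All 3 MCC950 libraries lay above the other 6, while the antibody and untreated libraries overlapped. Its difference was 0.36 ± 0.05 (adjusted p = 2.5e-07) with MCC950 and 0.08 ± 0.05 (adjusted p = 0.221) with the antibody, which did not pass.

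Among the constitutive beta subunits, 3 of 7 rose with MCC950 (Psmb3, Psmb4 and Psmb5) and 0 of 7 passed with the antibody by edgeR's test, where 1 was lower at an unadjusted p under 0.05 and 0 passed by DESeq2. The medians of the 7 were 0.17 and -0.054. Psmb5, the constitutive chymotrypsin-like site, measured 40.8, 34.3 and 41.0 in the untreated libraries, 42.5, 39.9 and 40.9 with the antibody and 50.1, 55.4 and 54.9 with MCC950. Its MCC950 libraries were all higher than the rest. The difference was 0.47 ± 0.08 (adjusted p = 3.33e-06) with MCC950, a 1.38-fold level, and 0.09 ± 0.08 (adjusted p = 0.405) with the antibody.

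The other cutting subunits did not pass in any comparison. Psmb6, the caspase-like site, measured 53.9, 60.01 and 59.2 in the untreated libraries, 53.8, 58.1 and 55.1 with the antibody and 62.0, 63.6 and 60.7 with MCC950, with log2 differences of -0.05 (adjusted p = 0.576) and 0.11 (adjusted p = 0.21). Its MCC950 libraries lay above both other groups. Psmb7, the trypsin-like site, measured 47.1, 50.4 and 49.8 in the untreated libraries, 52.6, 48.7 and 50.9 with the antibody and 55.8, 50.6 and 51.9 with MCC950, with 0.05 (adjusted p = 0.653) and 0.10 (adjusted p = 0.257). Its MCC950 libraries lay above the untreated ones, and its antibody libraries overlapped both. Psmb4, a structural subunit of the ring, measured 98.7, 98.2 and 102 in the untreated libraries, 103, 93.9 and 86.4 with the antibody and 119.8, 118 and 118 with MCC950. Its MCC950 libraries stood apart from the rest, with 0.25 ± 0.05 (adjusted p = 0.000128), while the antibody gave -0.08 ± 0.05 (adjusted p = 0.286).

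**Figure D2:**
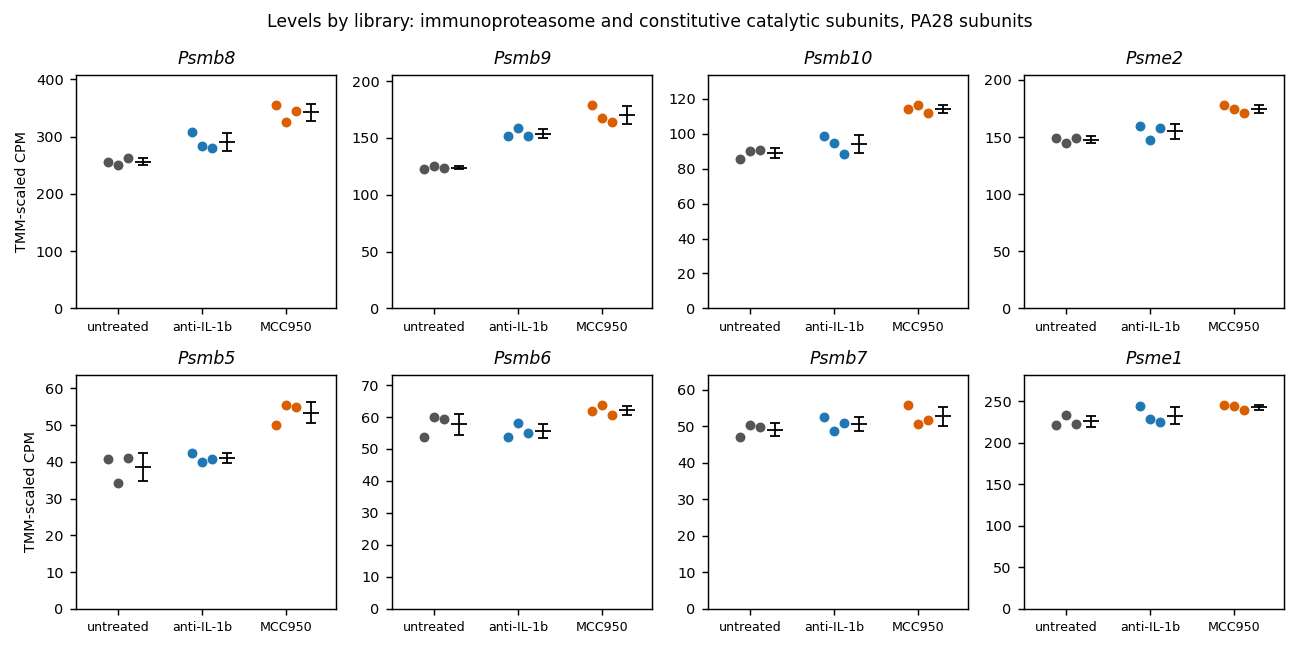
TMM-scaled CPM of 8 genes in each library (points), with the mean and SD of each group of 3 (bars), on axes that start at 0. The MCC950 points of Psmb8, Psmb10, Psme2 and Psmb5 lie above all other points of their panel, and the antibody points of Psmb8 and Psmb9 lie above the untreated ones.

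The balance of immuno- to constitutive subunit was read as the ratio of TPM within each library, 6 comparisons in all. For 3 libraries against 3 the exact two-sided permutation test cannot go below 0.1, so no ratio could pass a limit of 0.05. Psmb8 to Psmb5 was 4.94, 5.76 and 5.01 in untreated, 5.59, 5.32 and 5.27 in antibody and 5.49, 4.58 and 4.95 in MCC950 libraries, which overlapped. Its log2 difference was 0.046 with the antibody (exact permutation p = 0.6) and -0.065 with MCC950 (exact permutation p = 0.6), and the second turned to 0.0063 without untreated replicate 2. The first ran from 0.0056 without untreated replicate 1 to 0.12 without untreated replicate 2, and was 0.016 without untreated replicate 3 and 0.020 without antibody replicate 1. Psmb9 to Psmb6 was 1.204, 1.05 and 1.16, then 1.32, 1.31 and 1.28, then 1.34, 1.19 and 1.22 in the same order. The antibody group lay above the untreated one (0.20, exact permutation p = 0.1, adjusted over the 6 comparisons 0.2), while the MCC950 group overlapped it (0.14, exact permutation p = 0.2, adjusted 0.3). The MCC950 value was 0.078 without untreated replicate 2 and 0.086 without MCC950 replicate 1.

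Psmb10 to Psmb7 was 2.64, 2.49 and 2.38 in untreated, 2.65, 2.88 and 2.65 in antibody and 3.05, 3.42 and 3.30 in MCC950 libraries. Neither treated group overlapped the untreated one, with 0.12 for the antibody and 0.38 for MCC950 (exact permutation p = 0.1 and adjusted 0.2 for each). TPM uses an effective length that RSEM estimates for each library. The mean effective length of Psmb9 was 1070 bases for untreated mice, 1211 for the antibody and 1234 for MCC950. That of Psmb10 was 684, 645 and 625 bases in the same order, and that of Psmb7 was 945, 948 and 939. From expected counts, which do not use that length, the difference for Psmb9 to Psmb6 was 0.36 with the antibody and 0.35 with MCC950, and for Psmb10 to Psmb7 it was 0.036 and 0.26.

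**Figure D3:**
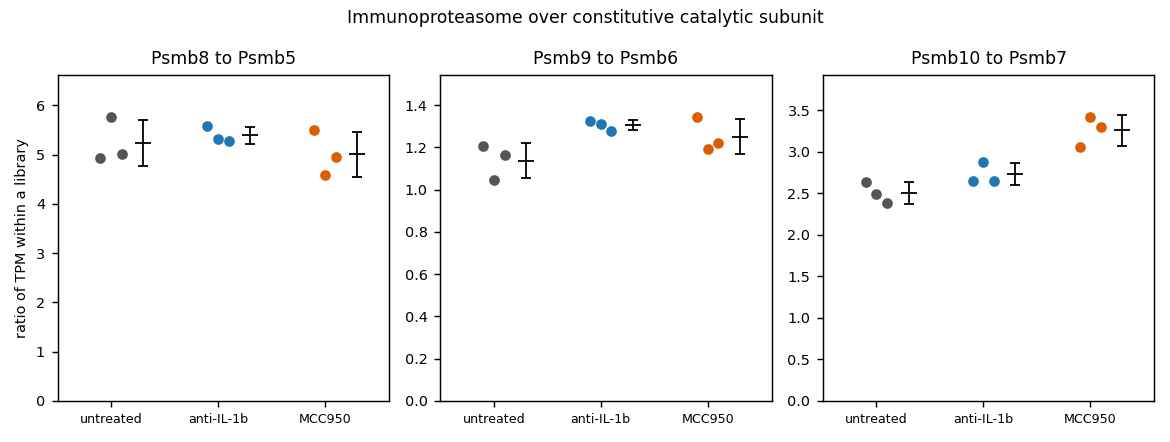
Ratio of TPM of each immunoproteasome subunit to its constitutive counterpart in each library (points), with group mean and SD (bars, n = 3), on axes that start at 0. Psmb10 to Psmb7 runs from 3.05 to 3.42 with MCC950 and from 2.38 to 2.64 in untreated cells, while the groups of Psmb8 to Psmb5 overlap.

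In the alpha rings, whose gates close the barrel, 4 of 7 tested members rose with MCC950 (Psma1, Psma4, Psma5 and Psma7, median 0.21) and Psma3 fell with the antibody (median 0.034). Psma5 measured 40.0, 33.8 and 32.6 in the untreated libraries, 36.6, 38.0 and 40.8 with the antibody and 49.7, 50.3 and 45.9 with MCC950. Its MCC950 libraries were the highest, with 0.46 ± 0.08 (adjusted p = 1.08e-05), while the antibody libraries overlapped the untreated ones, with 0.12 ± 0.08 (adjusted p = 0.273). Psma7 measured 70.4, 80.6 and 70.5 in the untreated libraries, 76.4, 78.6 and 72.1 with the antibody and 94.3, 85.1 and 89.2 with MCC950. MCC950 again gave the 3 highest values, with 0.28 ± 0.06 (adjusted p = 0.000294), and the antibody gave 0.03 ± 0.06 (adjusted p = 0.714). The fall of Psma3 (-0.15 ± 0.06, adjusted p = 0.0297) did not pass without untreated replicate 1 or 2 or antibody replicate 1 or 3, at adjusted p from 0.0649 to 0.148. Its difference was -0.10 with upper-quartile scaling, -0.028 from library totals and 0.080 on TPM. The rise of Psma1 (0.21 ± 0.07, adjusted p = 0.0159) did not pass without MCC950 replicate 2 (0.13, adjusted p = 0.196).

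In the ATPase ring of the 19S regulator, 4 of 6 rose with MCC950 (Psmc1, Psmc3, Psmc4 and Psmc5), with a median of 0.16. Psmc3 (0.14 ± 0.05, adjusted p = 0.0231) did not pass without MCC950 replicate 1 or 2 or untreated replicate 2 or 3, at adjusted p from 0.0616 to 0.102. Psmc5 (0.19 ± 0.06, adjusted p = 0.0154) did not pass without MCC950 replicate 1 or untreated replicate 2 (adjusted p = 0.0851 and 0.0665). With the antibody Psmc1 rose and Psmc6 fell. Psmc1 measured 66.5, 70.4 and 65.4 in the untreated libraries, 79.8, 76.8 and 75.6 with the antibody and 76.7, 79.7 and 84.0 with MCC950. Both treated groups lay above the untreated one, with 0.20 ± 0.06 (adjusted p = 0.00671) for the antibody and 0.25 ± 0.06 (adjusted p = 0.000672) for MCC950. Psmc4 measured 63.2, 59.8 and 66.3 in the untreated libraries, 60.5, 73.6 and 63.5 with the antibody and 80.0, 72.5 and 75.9 with MCC950, with 0.27 ± 0.07 (adjusted p = 0.0012) for MCC950 and 0.06 ± 0.07 (adjusted p = 0.531) for the antibody, and its antibody libraries overlapped both other groups. Psmc6 had group means of 53.9 ± 7.21, 44.0 ± 3.36 and 48.5 ± 1.61 (SD, n = 3, untreated, antibody, MCC950). Its antibody difference was -0.29 ± 0.08 (adjusted p = 0.00383), with an adjusted p of 0.0619 without untreated replicate 2. It was -0.17 from library totals (adjusted p = 0.0976) and -0.16 on TPM by limma-trend (adjusted p = 0.364).

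Of the 11 non-ATPase subunits of the 19S regulator, 4 rose with MCC950 (Psmd2, Psmd4, Psmd6 and Psmd13) and 1 fell, with a median of 0.072. Psmd13 (0.18 ± 0.06, adjusted p = 0.0221) did not pass without MCC950 replicate 1 or 2 or untreated replicate 3 (adjusted p = 0.0607, 0.05003 and 0.102). With the antibody 2 fell, with a median of -0.0030. Psmd2, the large scaffold next to the ATPases, measured 162, 158 and 165 in the untreated libraries, 168, 159 and 164 with the antibody and 186, 188 and 186 with MCC950. The MCC950 libraries lay close together and above the rest, with 0.21 ± 0.04 (adjusted p = 3.01e-05), while the antibody gave 0.02 ± 0.04 (adjusted p = 0.781). Psmd14, the enzyme that cuts ubiquitin chains off the substrate, fell with the antibody. It measured 52.0, 65.8 and 56.7 in the untreated libraries, 48.5, 43.7 and 44.4 with the antibody and 55.1, 54.8 and 52.1 with MCC950. All 3 antibody libraries were below the other 6, with -0.36 ± 0.08 (adjusted p = 0.000223), and MCC950 gave -0.11 ± 0.07 (adjusted p = 0.254). Psmd12, a scaffold subunit of the lid, fell in both treated groups, with means of 52.3 ± 2.13, 42.6 ± 4.61 and 44.1 ± 0.934, the same order of groups as above. The differences were -0.30 ± 0.07 (adjusted p = 0.00183) and -0.25 ± 0.07 (adjusted p = 0.00798). Without TMM, from library totals alone, they were -0.17 and -0.13 and did not pass (adjusted p = 0.0712 and 0.156).

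Of the 5 activator genes, 3 rose with MCC950: Psme1 and Psme2, the PA28 subunits, and the Psme2 copy Psme2b. Psme3, a nuclear relative (-0.03 ± 0.04, adjusted p = 0.688), and Psme4, which codes for PA200 (-0.03 ± 0.06, adjusted p = 0.743), did not pass with MCC950. Psme1 measured 221, 234 and 222 in the untreated libraries, 244, 229 and 224 with the antibody and 245, 244 and 239 with MCC950. The MCC950 libraries lay above the untreated ones and overlapped the antibody ones. The difference with MCC950 was 0.10 ± 0.04 (adjusted p = 0.0237), and without untreated replicate 1 or 3 or MCC950 replicate 1 or 2 it did not pass, at adjusted p from 0.0547 to 0.0908.

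Psme2 measured 149, 144 and 149 in the untreated libraries, 159.6, 148 and 158 with the antibody and 178, 175 and 171 with MCC950. MCC950 gave the 3 highest values, with 0.24 ± 0.04 (adjusted p = 5.45e-06), while the antibody gave 0.07 ± 0.04 (adjusted p = 0.194). Psme2b measured 40.5, 36.6 and 42.5 in the untreated libraries, 37.9, 40.7 and 39.2 with the antibody and 48.9, 46.9 and 49.9 with MCC950, with 0.28 ± 0.07 (adjusted p = 0.00203) for MCC950. The copies can share reads, so their split is uncertain. Psme2b also overlaps 9930111J21Rik1 and Gm12185 on the same strand, so strand would not separate their reads. Their means were 140.5 and 8.41 CPM, against 42.6 for Psme2b. Summed, Psme2 and Psme2b gave 187.6 ± 5.73, 194.3 ± 5.08 and 223.3 ± 3.17 CPM (SD, n = 3), with log2 differences of 0.051 with the antibody (adjusted p = 0.318) and 0.25 with MCC950 (adjusted p = 6.25e-07). The TPM of Psme2 varied more between libraries than its counts, its largest effective length in a library was 1.63 times its smallest, and on TPM its MCC950 difference did not pass by limma-trend (0.49, adjusted p = 0.0546). Psme3 fell with the antibody (-0.13 ± 0.04, adjusted p = 0.0238), and without untreated replicate 1 or 3 or antibody replicate 3 it did not pass, at adjusted p from 0.0554 to 0.12.

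Assembly chaperones build the particle and leave it. Of the 4 for the core, Psmg1 and Psmg3 rose and Psmg4 fell with MCC950 (median 0.28), and 0 passed with the antibody by edgeR's test, at an unadjusted p under 0.05 or by DESeq2. Psmg3, part of a chaperone pair for the alpha ring, measured 6.52, 7.52 and 7.12 in the untreated libraries, 10.53, 6.83 and 9.25 with the antibody and 14.01, 12.1 and 11.3 with MCC950. Its MCC950 libraries were the highest, with 0.82 ± 0.16 (adjusted p = 0.000104), a 1.77-fold level. The antibody libraries overlapped the untreated ones, with 0.33 ± 0.17 (adjusted p = 0.133). Psmg1, part of another such pair, measured 11.4, 15.8 and 15.8 in the untreated libraries, 12.1, 14.1 and 15.6 with the antibody and 18.3, 21.3 and 18.2 with MCC950, with 0.42 ± 0.13 (adjusted p = 0.011) for MCC950, and without MCC950 replicate 2 or untreated replicate 1 the adjusted p was 0.0844 and 0.104. Psmg4, the partner of Psmg3, fell with MCC950, from 11.1 ± 0.195 to 8.07 ± 1.31 CPM (-0.46 ± 0.16, adjusted p = 0.0189), and did not pass without MCC950 replicate 2 or 3 (adjusted p = 0.0791 and 0.108) or from library totals (-0.34, adjusted p = 0.0744).

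For the 19S regulator, 1 of 3 chaperones rose with MCC950. Psmd10, known as gankyrin, measured 18.2, 17.2 and 18.1 in the untreated libraries, 16.9, 16.2 and 20.6 with the antibody and 23.4, 26.0 and 22.9 with MCC950. Only the MCC950 group stood apart, with 0.44 ± 0.11 (adjusted p = 0.00186), while the antibody gave 0.01 ± 0.11 (adjusted p = 0.969). Psmd5 and Psmd9 did not pass against untreated, nor did Psmf1, which codes for the PI31 regulator (-0.11 with the antibody and -0.17 with MCC950), or Psmc3ip.

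The agents were also compared with each other directly. The 21 members lower with the antibody included 3 of 7 alpha subunits, 3 of 7 constitutive and 3 of 3 immunoproteasome beta subunits, 2 of 6 ATPases, 4 of 11 non-ATPases, 2 of 5 activators and 4 of 7 assembly chaperones. Of all tested genes, 7.11% were lower with the antibody than with MCC950. The 0 members higher with the antibody became 1 at an unadjusted p under 0.05, and DESeq2's Wald test gave 0 higher and 23 lower. Psmb5 (-0.38 ± 0.08, adjusted p = 0.000413), Psmb3 (-0.31 ± 0.06, adjusted p = 0.000317), Psmb10 (-0.28 ± 0.05, adjusted p = 0.000127), Psmb8 (-0.24 ± 0.04, adjusted p = 1.06e-05) and Psme2b (-0.31 ± 0.07, adjusted p = 0.00361) passed in each of the alternatives in which they were tested. Psmb4 (-0.33 ± 0.05, adjusted p = 1.34e-05), Psma5 (-0.34 ± 0.08, adjusted p = 0.00251), Psmd2 (-0.19 ± 0.04, adjusted p = 0.000464) and Psme2 (-0.17 ± 0.04, adjusted p = 0.00242) passed in all of them except on the TPM scale. Psmc1, which rose with both agents, did not pass (-0.05 ± 0.06, adjusted p = 0.669). None of the alternatives dealt with the overlap of Psme2b with other genes on its strand. Without MCC950 replicate 1 the count fell from 21 to 13.

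The counts moved with the scaling. With the antibody, from library totals 20 members rose and 1 fell, from upper-quartile scaling 9 and 3, and from log2(TPM + 1) with limma-trend 21 and 1, against 3 and 5 with TMM. With MCC950 the rises numbered 34 from library totals, 25 from upper-quartile scaling and 29 on TPM, against 24 with TMM, and 19 without MCC950 replicate 2. The other genes moved too: 45.5% of all calls with the antibody were rises under TMM, 58.1% under upper-quartile scaling, 74.5% from library totals and 75.4% on TPM. For MCC950 these shares were 48.1%, 56.4%, 71.6% and 66.4%, and between the agents 46.3%, 53.3%, 53.4% and 64.4%. Measured from the median of all genes, the members' median stayed within -0.017 and 0.041 for the antibody, 0.12 and 0.18 for MCC950 and -0.17 and -0.13 between the agents, over all settings run. Psmb8, Psmb9 and Psmc1 rose and Psmd14 fell with the antibody in each alternative. Of the 24 rises with MCC950, 17 passed in each alternative.

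**Figure D4:**
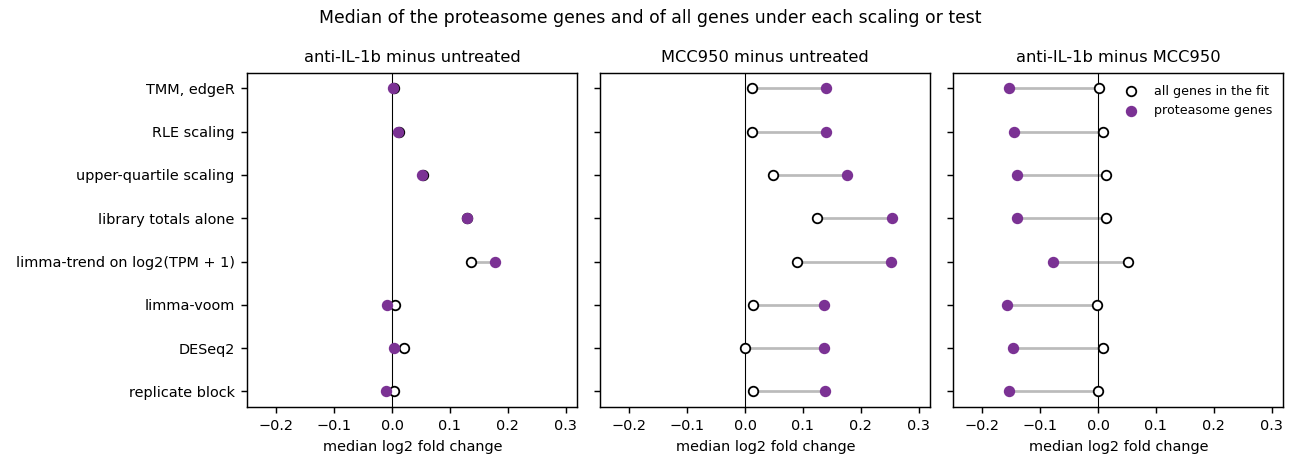
Median log2 fold change of the proteasome genes (filled) and of all genes in the fit (open) in 3 comparisons under 8 ways of scaling or testing. In the middle panel the filled point lies to the right of the open one in each row, in the right panel to its left, and in the left panel the pair moves together.

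Genes of proteins that work with the proteasome under other symbols were read from a list. Of 17 such partners, 0 rose and 7 fell with the antibody by edgeR's test (0 rose at an unadjusted p under 0.05 and 0 by DESeq2), and 3 rose and 7 fell with MCC950. Rises and falls numbered 15.4% and 18.5% of all genes with the antibody and 17.7% and 19.1% with MCC950. The medians of the partners were -0.12 and -0.092. The 3 that rose with MCC950, named after their values were seen, were the ubiquitin receptor Adrm1 (0.20 ± 0.06, adjusted p = 0.00671), the small lid subunit Sem1 (0.31 ± 0.08, adjusted p = 0.00144) and the core maturation factor Pomp (0.28 ± 0.07, adjusted p = 0.00294). Other proteins that bind the proteasome were among the falls, such as the shuttle Rad23b (-0.34 ± 0.05, adjusted p = 8.17e-07) and the zinc finger protein Zfand5 (-0.66 ± 0.06, adjusted p = 5.2e-12), also named after their values were seen. Zfand2a, a proteasome-binding protein induced by arsenite and heat, fell from 160.0 ± 1.86 to 18.96 ± 2.91 with the antibody and 23.6 ± 0.83 CPM with MCC950 (log2 -3.08 and -2.76, adjusted p = 1.51e-30 and 1.71e-29). Of 6 ubiquitin genes, 0 rose and 4 fell in each treated group by edgeR's test, with the same counts at an unadjusted p under 0.05 and by DESeq2, and medians of -0.15 and -0.17. Ubb, which codes for a chain of ubiquitin units, had means of 2006 ± 58.1, 993 ± 22.3 and 941 ± 30.1 (untreated, antibody, MCC950), log2 -1.01 and -1.09 (adjusted p = 4.84e-29 and 3.76e-30).

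Of 9 genes of the p97 segregase, which pulls proteins out of complexes for the proteasome, 0 rose and 1 fell with the antibody (Nsfl1c, -0.16 ± 0.06, adjusted p = 0.0489). With MCC950 0 of the 9 passed by edgeR's test, while 1 rose and 1 fell at an unadjusted p under 0.05 and 1 fell by DESeq2's Wald test. The medians of the 9 were -0.071 and -0.020. For this list and those that follow, rises made up 15.4% of all tested genes with the antibody and 17.7% with MCC950. Falls made up 18.5% and 19.1%. Of 5 known regulators of proteasome genes, 1 rose and 2 fell with the antibody and 1 rose and 3 fell with MCC950, with medians of -0.12 and -0.15. Irf1, an interferon-responsive activator of the immunoproteasome genes, fell, with means of 473 ± 7.11, 269 ± 6.999 and 301 ± 4.94 and log2 -0.82 and -0.65 (adjusted p = 2.96e-23 and 4.41e-20). Nlrc5, the activator of MHC class I genes, rose, with 403 ± 8.58, 497 ± 11.5 and 449.7 ± 7.45 and log2 0.30 and 0.16 (adjusted p = 1.17e-10 and 5.16e-05). Of 5 genes that process or present class I peptides, 3 rose and 1 fell in each treated group, with medians of 0.17 and 0.19. The chaperone Tapbp rose (0.21 ± 0.04, adjusted p = 7.98e-06 with the antibody and 0.31 ± 0.04, adjusted p = 4.28e-09 with MCC950), while B2m, the light chain of class I, fell (-0.34 ± 0.03, adjusted p = 4.07e-14 and -0.34 ± 0.03, adjusted p = 4.57e-14, respectively).

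Other signals moved with the same groups. All 12 genes of a list named for handling and heat stress fell in both treated groups, where 18.5% and 19.1% of all genes fell. Jun, 1 of the 12, had 1618 ± 9.78, 206 ± 8.29 and 133 ± 4.66 CPM (untreated, antibody, MCC950). Between the agents 4 of the 12 were higher and 7 lower with the antibody, against 6.13% and 7.11% of all genes. Whether handling moved these genes was not tested. This list and the cell marker lists were set with earlier results of these data known. Of 11 T cell markers none was at 0, and their sum ran from 7628 to 7733 CPM in untreated, 7531 to 7575 in antibody and 7091 to 7106 in MCC950 libraries. Single T cell markers did move. With the antibody 3 rose and 3 fell, where 15.4% and 18.5% of all genes did. With MCC950 3 rose and 5 fell, where 17.7% and 19.1% of all genes did. Their log2 differences ran from -0.50 to 0.26 and from -0.55 to 0.26. B cells express the immunoproteasome as well. All 11 B cell markers were higher in both treated groups, where 15.4% and 17.7% of all genes rose. Their log2 differences ran from 0.35 to 2.89 with the antibody (median 2.19) and from 0.26 to 3.10 with MCC950 (median 2.47). Their summed CPM ran from 319.9 to 339.7, 479 to 496 and 471 to 493. Between the agents 0 of 11 passed by edgeR's test, with 1 higher and 2 lower at an unadjusted p under 0.05 and 1 higher by DESeq2.

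The 10 markers of cytotoxic T and NK cells summed to 61.7 to 69.5, 89.1 to 97.5 and 93.9 to 98.3 CPM, with Klrb1c and Ncr1 at 0 in untreated cells. Monocyte, macrophage and dendritic cell markers summed to 4.51 to 8.005, 17.4 to 21.4 and 18.1 to 21.6, with Siglech at 0 with MCC950. Neutrophil markers summed to 1.097 to 1.203, 20.9 to 22.1 and 10.9 to 11.9, with Elane at 0 in all groups and S100a8, Ly6g and 4 others at 0 in untreated cells. Red cell markers summed to 0.122 to 0.445, 4.38 to 5.005 and 5.92 to 9.69, with Hba-a1, Hbb-bs and Hbb-bt at 0 in untreated cells. The part of these cells and of the stress genes in the proteasome values was not tested.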

How the data were processed

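STAR and RSEM (versions not named) and mm10 were used by the authors, per the submitters' processing notes. In the deposited files, expected counts are estimated reads per gene without normalization, and the deposited TPM relate them to effective length and a fixed library total, per the file headers. No source used here says whether counting used strand. In all, 9 members overlap a gene with a mean of at least 1 CPM. Besides Psmb9 and Psme2b they are Psma2, Psma3, Psmb7, Psmc3, Psmc3ip, Psmd13 and Psme1. Psmd13 (61.4 CPM) overlaps Gm15542 (13.8 CPM) and Psma2 (80.7 CPM) overlaps AW209491 (7.85 CPM), each on the same strand. Psmc3ip (2.54 CPM) overlaps Mlx (48.6 CPM) on the other strand.

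Gene IDs were matched to GENCODE M21 (99.4% had a symbol). Libraries held 14775375 to 21394797 expected counts. TMM factors were 0.945 to 0.947 in untreated, 1.031 to 1.035 in antibody and 1.023 to 1.024 in MCC950 libraries, so the scaling differed with the group. Expected counts were rounded and fitted over all 9 libraries with edgeR 4.0.16 (R 4.3.3, filterByExpr, TMM, robust quasi-likelihood), which left 13374 genes, with Benjamini-Hochberg adjustment at 0.05. The fit was tested on simulated data, with 50 genes changed at each fold among 13044 to 13090 tested, none of them at the lowest levels. Over the 3 comparisons, 6% to 12% of genes changed 1.1-fold were called, 36% to 42% of those changed 1.2-fold and 80% to 82% of those changed 1.5-fold. In the data 34.0% and 36.8% of genes passed against untreated. The Benjamini-Hochberg limit is stricter where fewer genes change, so the simulated shares need not hold for the data. A gene that did not pass may still differ by a small fold. Ratios of TPM were tested by exact permutation. The 21 alternatives were scaling by library totals, upper quartile or RLE, filters of 1 count or of CPM of at least 1 in 3 libraries, DESeq2 1.42.0, limma-voom and limma-trend on log2(TPM + 1) (limma 3.58.1), a replicate block, no robust option, own 6 libraries, each library left out, and Psme2 and Psme2b summed, which was added after seeing the data.

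Values in all libraries are given for Psmb5 to Psmb10, Psme1, Psme2 and, in each role, the 2 members with the smallest p past the threshold in either comparison with untreated. From the lists of other genes at most 2 were named by the same measure. One gene that this rule names is not reported here. The symbol rule and the lists were set with earlier results of these data known, and within the rule members were taken by name only.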

Additional observations from a re-analysis of the deposited data

Results flagged for a closer look

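The 2 agents share the untreated libraries, so their effects on a gene differ where the agents themselves differ. By edgeR's quasi-likelihood test of that difference, 21 proteasome genes were lower with the antibody than with MCC950. The log2 differences, antibody minus MCC950, were -0.19 for Psma2, -0.34 for Psma5 and -0.24 for Psma7 in the alpha ring. In the beta ring they were -0.31 for Psmb3, -0.33 for Psmb4 and -0.38 for Psmb5. The immunoproteasome subunits had -0.24 for Psmb8, -0.15 for Psmb9 and -0.28 for Psmb10. In the 19S regulator they were -0.18 for Psmc3, -0.21 for Psmc4, -0.19 for Psmd2, -0.18 for Psmd4, -0.25 for Psmd6 and -0.24 for Psmd14. The activators had -0.17 for Psme2 and -0.31 for Psme2b. The chaperones had -0.23 for Psmd5, -0.43 for Psmd10, -0.47 for Psmg1 and -0.49 for Psmg3.

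Several of these calls were lost with a library left out, while each kept its sign. In those cases the log2 difference ran from -0.55 to -0.33 for Psmg3 and from -0.23 to -0.21 for Psmd5. Without MCC950 replicate 1, 8 of them did not pass (Psma2, Psma7, Psmb9, Psmc4, Psmd14, Psmd4, Psmd5 and Psmg3, adjusted p from 0.0533 to 0.208). Without MCC950 replicate 2, 4 did not (Psmd10, Psmd14, Psmg1 and Psmg3, 0.0616 to 0.107), and without MCC950 replicate 3, 5 did not (Psma2, Psmc4, Psmd5, Psmd6 and Psmg3, 0.0523 to 0.0984). Without antibody replicate 1, 4 did not (Psma2, Psmb9, Psmc4 and Psmg1, 0.0533 to 0.192). Without antibody replicate 2, 6 did not (Psma2, Psmd10, Psmd14, Psmd5, Psmd6 and Psmg3, 0.0545 to 0.249), and without antibody replicate 3, 5 did not (Psmb9, Psmc3, Psmc4, Psmd14 and Psmg3, 0.0555 to 0.119).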

How the results depend on the processing

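Rises with the antibody numbered 9 with upper-quartile scaling, 20 from library totals, 21 on log2(TPM + 1) and 3 to 5 with a library left out (5 without untreated replicate 1). Falls numbered 3, 1 and 1 under the same settings, 3 with the comparison's own 6 libraries and 3 to 5 with a library left out (3 without untreated replicate 1 or 2). Rises with MCC950 numbered 34 from library totals, 29 on TPM and 19 to 25 with a library left out. Falls with MCC950 numbered 0 from library totals, 1 on TPM and 1 to 3 with a library left out (1 without MCC950 replicate 2). Members lower with the antibody than with MCC950 numbered 5 on TPM and 13 to 22 with a library left out. On TPM, 3278 of all genes passed with MCC950 and 576 between the agents, against 4921 and 1771. Signs turned with the antibody on TPM for Psma3 (0.080), Psmc3 (0.18), Psmd6 (0.23) and Psmd7 (0.19), and from library totals for Psme3 (0.00084). The ratio Psmb8 to Psmb5 with MCC950 ran from -0.13 to 0.0063 with a library left out. From expected counts, which leave out effective length, the differences were 0.36 and 0.35 for Psmb9 to Psmb6 and 0.036 and 0.26 for Psmb10 to Psmb7. Why the effective lengths differed, and the cause of the other shifts, was not tested.

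No source used here says whether the shared replicate numbers pair the libraries. Same-numbered libraries correlated at 0.012 to 0.066 in their deviations from the group means, weak but all positive. Others correlated at -0.074 to 0.030, mostly negative. Whether the numbers mark a weak pairing was not tested. With the replicate number as a block, 3 members rose and 5 fell with the antibody, 24 and 2 with MCC950, and 0 and 21 between the agents, as without it, and 4483, 4855 and 1704 of all genes passed. At a mean of 2.54 CPM, Psmc3ip had an SE of 0.39 on the log2 scale. How much of that is sequencing depth and how much is variation between libraries was not tested.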
